A study of Rattus norvegicus with 4 samples.

Results

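Oxidative phosphorylation is carried out by 4 respiratory complexes (I to IV) and the ATP synthase (complex V) of the inner mitochondrial membrane. Their nuclear-encoded subunits were examined in the telencephalon, the front of the embryonic forebrain, of wild-type and Pax6 mutant rat embryos at E11.5. The members are the probe sets with a single gene symbol that names such a subunit by its family prefix (Nduf, Sdha to Sdhd, Uqcr, Cox4 to Cox8, Cyc1, Cycs or Atp5). They number 97 probe sets for 87 genes, of 20826 single-symbol probe sets for 14217 genes. The prefixes also take in 6 complex I assembly factors (Ndufaf genes) and 3 genes that are not subunits, the ATP synthase inhibitor Atp5if1, the supercomplex factor Cox7a2l and Cox6c-ps1, a pseudogene by its symbol. These are described on their own.

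Expression was measured on 4 one-colour Affymetrix arrays, 2 of wild-type rats and 2 of rats homozygous for the rSey2 allele of Pax6 (rSey2/rSey2), all at E11.5 on a Sprague-Dawley background. Each array carried RNA of pooled telencephalon (13 per preparation in the design text). Replicates are labelled as biological, but their litters are not named, so part of the spread on which the p-values rest may be technical. The mutation is constitutive and not limited to a cell type. Pax6 encodes a paired-box transcription factor of the dorsal forebrain and the eye. Values are the authors' GCRMA values on the log2 scale, on which a difference of 1 is a 2-fold change, and every difference below is mutant minus wild type.

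In this chain, complex I takes electrons from NADH and complex II from succinate, complex III passes them to cytochrome c, and complex IV hands them to oxygen. Complexes I, III and IV pump protons, and complex V uses the proton gradient to make ATP. Most subunits are encoded in the nucleus, and a smaller set in mitochondrial DNA. Neural progenitors of the early telencephalon lean strongly on glycolysis, and mitochondrial respiration gains weight as neurons form.

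The arrays correlated with each other at 0.99 over 18625 tested probe sets, and their medians over these ran from 8.22 to 8.35. All 7 telencephalic markers with a single-symbol probe set (Lhx2, Six3, Otx2, Sox2, Nes, Emx2 and Pax6) lay above the dim level of 3.21. Some lists of markers of other cell types had larger medians than the members. The erythroid list had a median difference of 0.32 (10 of 12 genes higher in the mutant) and a summed level (log2 of the summed linear values) of 16.23 and 16.26 in wild type against 16.43 and 16.42 in the mutant. The endothelial list had a median of 0.25 (11 of 11 higher) and a summed level of 12.27 and 12.28 against 12.46 and 12.59. Neuron markers had a median of 0.00 (4 of 9 higher, 4 lower), the value of Ina, which was listed at 4.32 in all 4 arrays. Their differences ran from -0.41 (Nefm) to 0.51 (Dcx). Mesenchyme and surface ectoderm markers had a median of -0.22 (3 of 10 higher). The telencephalic markers themselves had a median of 0.18 (5 of 7 higher) and a summed level of 14.83 and 14.84 against 15.09 and 14.96. The part of these shifts in the members' values was not tested. In such bulk samples, fewer cells of a type and less RNA per cell cannot be told apart.

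No oxidative phosphorylation gene passed the test for a difference between wild-type and mutant telencephalon, and all measured differences were small. Of 88 tested member probe sets, 0 passed a Benjamini-Hochberg adjusted p of 0.05 in limma, and over all probe sets 0% (0 of 18625) passed. At an unadjusted p of 0.05, 0 of the 88 passed, against 3.65% of all tested probe sets (680 of 18625). The lowest unadjusted p among the members was 0.070, for Ndufa5 (limma adjusted p = 1). The differences of the 81 tested genes, each read from its brightest probe set, ran from -0.23 (Cox6c) to 0.24 (Ndufa7). Their median was -0.03, with 30 genes higher, 50 lower and 1 equal, while the 9840 tested named genes had a median of 0.00 and ran from -7.26 to 1.84. The 829 named genes of similar brightness, with a mean between 11.66 and 13.02 (the middle range of the members, some of which are among them), were closer to the members, with a median of -0.02, a range from -0.50 to 0.61 and 13 genes at an unadjusted p under 0.05.

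The intervals of the members were about as narrow as those of other genes of similar brightness. For 80 of the 81 genes the 95% interval of the difference lay within 1 on the log2 scale on either side of 0, and for 60 of 81 within 0.5. Over all tested named genes these shares were 88.0% and 48.9%, and over the 829 genes of similar brightness 97.5% and 69.1%, against 98.8% and 74.1% of the members. The exception at the wider limit was Cox5a, a subunit of complex IV, whose difference was 0.12 with an interval from -0.87 to 1.11. A change of 1 or more lay outside the interval for the brightest probe set of all tested genes other than Cox5a. Of the dimmer second probe sets, those of Ndufa9 (down to -1.14) and Atp5if1 (down to -1.503) had intervals past that limit. The Atp5if1 one was at 3.05, under the dim level, in every array but wild-type replicate 1 (3.93).

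**Figure D1:**
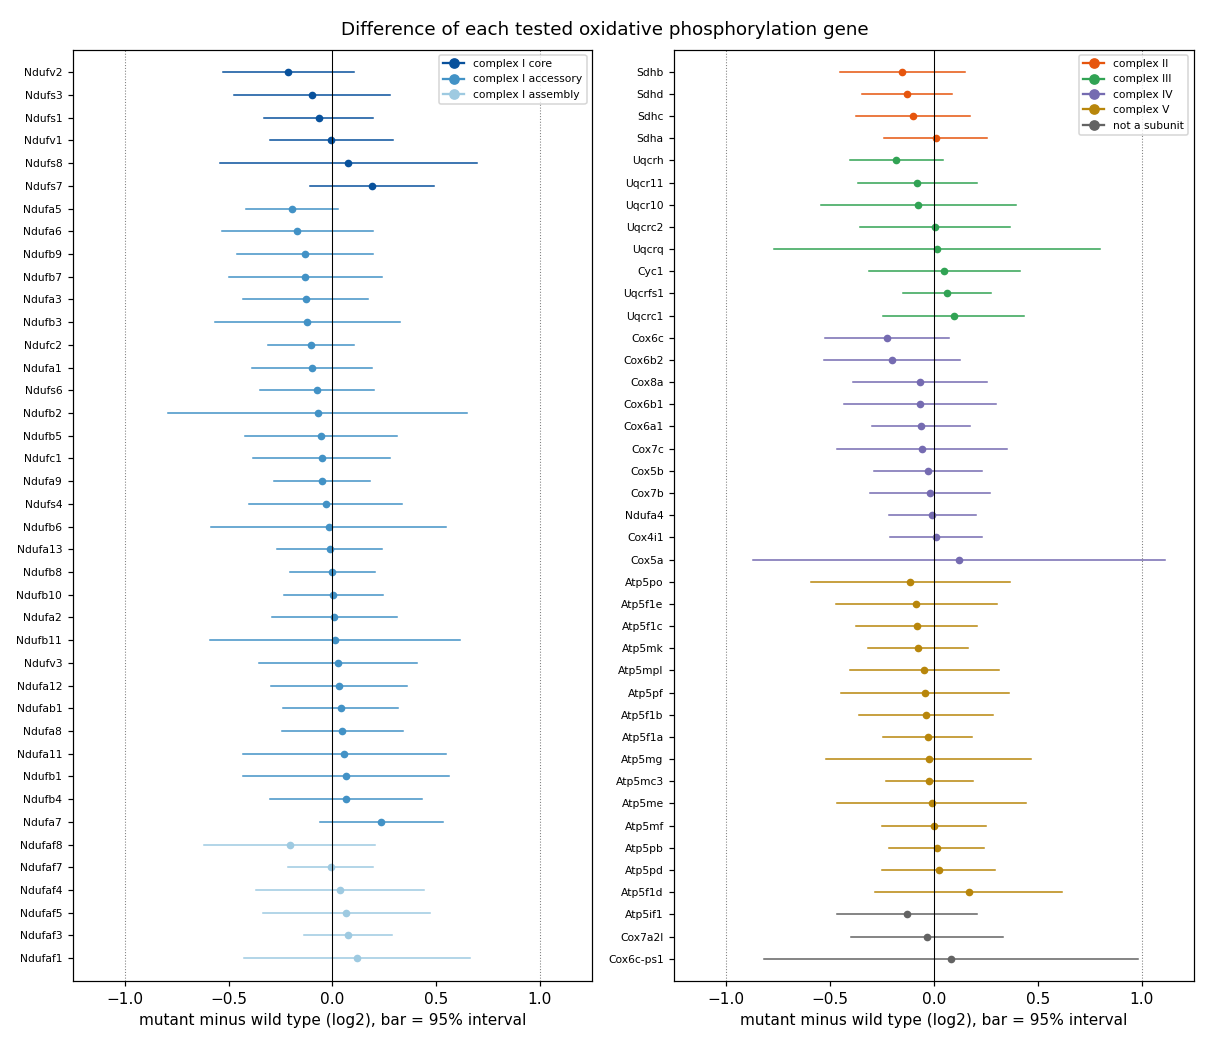
Difference (mutant minus wild type, log2) of the 81 tested member genes by complex, as points with 95% moderated intervals from limma (n = 2 arrays per genotype); dotted lines mark 1 on either side of 0. Every interval spans 0, and the interval of Cox5a (-0.87 to 1.11) is the only one to cross a dotted line.

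**Figure D2:**
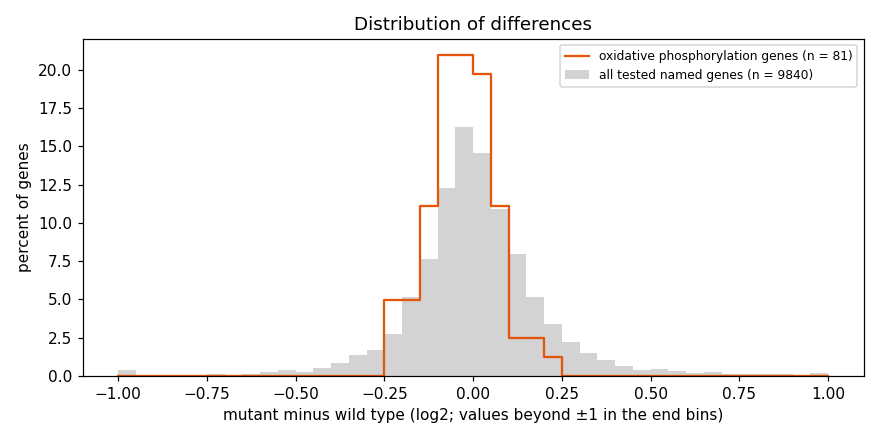
Percent of genes (vertical axis) by difference (horizontal axis, log2, bins of 0.05) for the 9840 tested named genes in grey and the 81 member genes as an orange line. The member genes lie between -0.23 and 0.24, and the grey distribution extends past -1 and 1.

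Where the arrays of the genotypes did not overlap, members were more often lower than higher in the mutant, by a margin that changed with the scaling and with the arrays used. Both mutant values lay below both wild-type values in 18 of the 81 genes (22.2%), against 12.1% of all tested named genes, and above them in 4 genes (4.94%), against 12.2%. The genes of similar brightness leaned the same way, with 17.2% lower and 6.03% higher among 829. After quantile normalization 12 members were lower (14.8%, against 12.8% of all named genes) and 6 higher (7.41%, against 14.9%). After centring each array on its median 10 were lower (12.3%, against 12.9%) and 1 higher (1.23%, against 13.6%). Under both scalings the share lower was thus near that of all named genes. The genes of similar brightness had 12.2% lower and 8.44% higher after quantile normalization, and 14% and 6.27% after median centring.

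With 3 arrays such separation is easier, also for all genes. Without mutant replicate 1, 54 members were lower (66.7%, against 28% of all named genes) and 8 higher (9.88%, against 38.2%). Without mutant replicate 2 the lean was the other way, with 26 lower (32.1%, against 37.4%) and 39 higher (48.1%, against 28.3%). Leaving out wild-type replicate 1 gave 35 lower (43.2%, against 32.8%) and 8 higher (9.88%, against 23.4%). Leaving out wild-type replicate 2 gave 20 lower (24.7%, against 23.6%) and 14 higher (17.3%, against 32.6%). The genes of similar brightness had 42.3% lower and 29% higher without mutant replicate 1, and 41.4% and 27.6% without mutant replicate 2. Without wild-type replicate 1 they had 36.4% lower and 17.5% higher, and without wild-type replicate 2 they had 30.3% and 22%. With all 4 arrays and the deposited scaling, the 4 genes higher without overlap were Ndufa7, Ndufs7, Ndufaf3 and Uqcrfs1.

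Complex I, the NADH dehydrogenase, had 34 tested subunits with a median difference of -0.02, 13 higher, 20 lower and 1 equal. Of the core subunits that carry the electron path, 6 were tested. Ndufs7, a core subunit with an iron-sulphur cluster, was at 11.501 and 11.66 in wild type and 11.82 and 11.72 in the mutant. The difference of 0.19 (SE 0.10; limma adjusted p = 1, n = 2) was the highest of the core, and both mutant arrays were above both wild-type arrays. Ndufv2, another iron-sulphur core subunit, was at 11.66 and 11.85 in wild type and 11.58 and 11.51 in the mutant. Its difference of -0.21 (SE 0.10; limma adjusted p = 1, n = 2) ran the other way, again without overlap. Ndufs1, Ndufs3, Ndufs8 and Ndufv1, the other tested core subunits, lay between -0.10 and 0.08 with overlapping groups.

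The accessory subunits, which surround and stabilise the core, numbered 28, with differences from -0.19 to 0.24 by brightest probe set. Ndufa7 was at 11.27 and 11.18 in wild type and 11.54 and 11.38 in the mutant. This difference of 0.24 (SE 0.10, 95% interval -0.06 to 0.53; limma adjusted p = 1) was the highest of all members, a 1.18-fold higher mean. The second, dimmer Ndufa7 probe set was at 6.91 and 7.31 in wild type and 7.03 and 6.70 in the mutant, which is a difference of -0.25 (SE 0.21), so the 2 probe sets of Ndufa7 disagree in sign. Ndufa5 was at 11.34 and 11.30 in wild type and 11.10 and 11.16 in the mutant, which is a difference of -0.19 (SE 0.07, 95% interval -0.42 to 0.03). Besides Ndufa5, the accessory subunits Ndufa3, Ndufa6, Ndufb7, Ndufb9 and Ndufc2 were lower without overlap, by 0.10 to 0.17 on the log2 scale. Ndufb8 was listed at 10.46 in all 4 arrays. It is 1 of 249 tested probe sets with no variation at all, so its difference of 0 carries no information on the spread.

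Of the complex I assembly factors, which help to build the complex and are absent from its final form, 6 were tested, with a median of 0.05. Ndufaf8 was at 10.33 and 10.61 in wild type and 10.31 and 10.21 in the mutant. Its difference of -0.21 (SE 0.14) was the lowest of the class by brightest probe set. Ndufaf1, a dim member, had the highest at 0.12 (SE 0.18), from 4.89 and 4.95 in wild type to 4.83 and 5.25 in the mutant, with overlapping groups. Ndufaf3 (0.08) and Ndufaf7 (-0.01) had so little spread that their groups did not overlap despite these small differences. The second, dimmer Ndufaf7 probe set was at 5.73 and 5.97 in wild type and 5.55 and 5.62 in the mutant. Its difference was -0.27 (SE 0.12), also without overlap.

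Complex II, succinate dehydrogenase, links the chain to the tricarboxylic acid cycle and is the 1 respiratory complex encoded wholly in the nucleus. Its 4 subunits had the lowest median of the complexes at -0.12, and 3 of 4 were lower without overlap, as were 12.1% of all tested named genes and 17.2% of those of similar brightness. Sdha, the flavoprotein that oxidises succinate, was at 12.11 and 12.13 in wild type and 12.07 and 12.19 in the mutant, which is a difference of 0.01 (SE 0.08, 95% interval -0.24 to 0.26). Sdhb, the iron-sulphur subunit, was at 12.93 and 12.96 in wild type and 12.88 and 12.70 in the mutant, which is a difference of -0.15 (SE 0.10; limma adjusted p = 1). The membrane anchor Sdhc was at 11.94 in both wild-type arrays and at 11.92 and 11.76 in the mutant ones, a difference of -0.10 (SE 0.09). For Sdhc and Sdhb, mutant replicate 1 lay within 0.05 of a wild-type array and mutant replicate 2 made most of the difference. The other anchor, Sdhd, was at 12.79 and 12.75 in wild type and 12.67 and 12.61 in the mutant, which is a difference of -0.13 (SE 0.07); its second probe set differed by -0.07 with overlapping groups.

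The promoter windows of the 4 complex II genes are shown because these genes form a whole complex and illustrate the motifs searched for in the members. They are RefSeq sequence of build GRCr8, from 250 bases before the annotated start to 30 bases after it, 5′ to 3′ on the gene's strand. Capitals mark matches on either strand to GCGCANGC (the site of NRF1, nuclear respiratory factor 1), CCGGAAG (the ETS site bound by GABPA) or AANATGGC (YY1).
Sdha (chr1:30764303-30764582, plus strand): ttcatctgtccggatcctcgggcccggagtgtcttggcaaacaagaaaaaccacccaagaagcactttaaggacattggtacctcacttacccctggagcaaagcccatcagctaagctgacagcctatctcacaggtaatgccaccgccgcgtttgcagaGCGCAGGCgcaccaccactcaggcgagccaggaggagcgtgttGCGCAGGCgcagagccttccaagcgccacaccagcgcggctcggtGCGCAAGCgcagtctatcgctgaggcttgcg
Sdhb (chr5:158547684-158547963, plus strand): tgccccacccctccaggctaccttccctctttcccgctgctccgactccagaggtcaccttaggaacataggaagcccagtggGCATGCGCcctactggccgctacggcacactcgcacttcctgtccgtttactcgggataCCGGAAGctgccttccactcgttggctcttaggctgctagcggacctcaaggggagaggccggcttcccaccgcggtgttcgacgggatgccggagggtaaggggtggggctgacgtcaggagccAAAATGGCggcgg
Sdhc (chr13:86097996-86098275, minus strand): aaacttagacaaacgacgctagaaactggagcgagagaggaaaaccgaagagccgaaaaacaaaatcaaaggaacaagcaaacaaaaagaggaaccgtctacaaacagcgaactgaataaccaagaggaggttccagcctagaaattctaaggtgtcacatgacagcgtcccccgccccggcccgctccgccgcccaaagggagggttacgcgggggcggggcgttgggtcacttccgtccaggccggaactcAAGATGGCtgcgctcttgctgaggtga
Sdhd (chr8:59850612-59850891, minus strand): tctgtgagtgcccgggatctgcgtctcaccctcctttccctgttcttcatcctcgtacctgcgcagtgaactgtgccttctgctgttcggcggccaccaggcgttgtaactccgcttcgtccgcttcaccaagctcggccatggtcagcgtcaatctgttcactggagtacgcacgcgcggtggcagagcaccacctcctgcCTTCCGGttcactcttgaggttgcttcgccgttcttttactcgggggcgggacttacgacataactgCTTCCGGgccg
The Sdha stretch held 3 matches to the NRF1 motif. The Sdhb stretch held 1 match to each of the 3 motifs, that of Sdhc 1 to YY1 and that of Sdhd 2 to the ETS site. Matches are a description of the letters and not of binding.

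Of the 87 member genes, 78 had a promoter window of 300 bases (250 before and 50 after the start) in the RefSeq table, on 20 chromosomes. The motif forms were chosen after a first look at the windows, so the members' shares are a description and not a test. The YY1 motif was found in 32 of the 78 windows (41.0%), against 11.2% of the 8246 windows of tested named genes and 7.36% of all 27457 windows. The NRF1 motif was in 22 of 78 (28.2%), against 21.2% and 9.67%, and the ETS motif in 22 of 78 (28.2%), against 19.7% and 9.22%. At least 1 of these 3 motifs was in 55 of 78 windows (70.5%), against 42.4% of the tested genes' windows. The GC box GGGCGG was in 43.6% of the members' windows against 65.4% of those of tested genes, and CCAAT in 34.6% against 38.3%. The median genotype difference was -0.04 over 30 tested genes with the YY1 motif and -0.02 over 43 without it, -0.02 over 22 with the NRF1 motif and -0.03 over 51 without it, and -0.04 over 22 with the ETS motif and -0.02 over 51 without it.

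**Figure D3:**
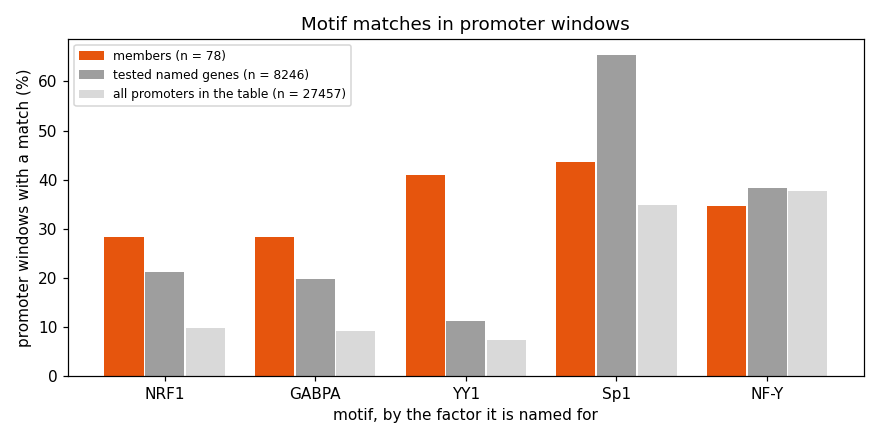
Percent of promoter windows (vertical axis) with a match to each motif, named by its factor, for 78 members (orange), 8246 tested named genes (mid grey) and all 27457 windows (light grey). The YY1 motif stands at 41.0% of the members' windows against 11.2% of those of tested genes, and the GC box of Sp1 at 43.6% against 65.4%. The motif forms were chosen after a first look at the windows, so the shares are a description and not a test.

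Complex III, the cytochrome bc1 complex, had 8 tested genes with a median of 0.01, 5 higher and 3 lower. Uqcrh, the hinge protein, was at 12.78 and 12.76 in wild type and 12.63 and 12.55 in the mutant. Its difference of -0.18 (SE 0.07, 95% interval -0.41 to 0.05; limma adjusted p = 1) was the lowest of the complex, and its groups did not overlap. Uqcrc1, a core protein, was at 12.02 and 12.22 in wild type and 12.27 and 12.16 in the mutant, which is a difference of 0.10 (SE 0.11) with overlapping groups. Uqcrfs1, the Rieske iron-sulphur protein, was at 13.26 and 13.27 in wild type and 13.35 and 13.30 in the mutant, which is a difference of 0.06 (SE 0.07). The haem-bearing Cyc1 differed by 0.05. Both probe sets of Uqcrc2 were within 0.01 of 0. Cytochrome c (Cycs), which carries electrons from complex III to IV, had only probe sets with several symbols and was not analysed here.

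Complex IV, cytochrome c oxidase, had 11 tested genes with a median of -0.06, 2 higher and 9 lower. Cox6c was at 13.62 and 13.78 in wild type and 13.51 and 13.43 in the mutant. Its difference of -0.23 (SE 0.10, 95% interval -0.53 to 0.07, limma adjusted p = 1) was the lowest of all members by brightest probe set. Cox6b2, an isoform known from testis, was at 9.09 and 8.90 in wild type and 8.74 and 8.85 in the mutant, which is a difference of -0.20 (SE 0.11). Cox6a1 was the third gene lower without overlap, at -0.06. Cox5a was at 7.39 and 6.84 in wild type and 7.54 and 6.94 in the mutant, so both genotypes had a high and a low array and the groups overlapped. A further probe set names Cox5a beside a second symbol and was left out. Cox4i1, the ubiquitous isoform of subunit IV, was within 0.07 over all 4 arrays, at 13.75 and 13.81 in wild type and 13.80 and 13.77 in the mutant. Ndufa4, first assigned to complex I and now counted with complex IV, was between 13.20 and 13.23 in every array.

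The 6 member genes that were dim, with every probe set under 3.21 in mean, all belonged to this complex or its paralogues. Cox6a2, Cox8b and Cox7a1 are the isoforms of heart and skeletal muscle, Cox4i2 is best known from lung, Cox7b2 from testis, and Ndufa4l2 is a hypoxia-induced paralogue of Ndufa4. Cox6a2, Cox8b, Cox7b2 and Ndufa4l2 were listed at the lowest value of the table, 2.07, in all 4 arrays, Cox4i2 at 2.08 and Cox7a1 at 2.47. No difference can be measured at these values in either genotype.

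Complex V, the ATP synthase, had 15 tested genes with a median of -0.03, 4 higher and 11 lower. Atp5f1d, the delta subunit of the central stalk, was at 12.10 and 12.12 in wild type and 12.45 and 12.11 in the mutant. The difference of 0.17 (SE 0.15; limma adjusted p = 1) came from mutant replicate 1 alone. Atp5po, which joins the stator stalk to the catalytic head, was at 13.03 and 13.02 in wild type and 13.09 and 12.73 in the mutant, which is a difference of -0.11 (SE 0.16) that came from mutant replicate 2. Atp5f1a, the catalytic head's alpha subunit, was within 0.07 in all 4 arrays. Atp5mk was the 1 gene of the complex lower without overlap, at -0.08. The inhibitor Atp5if1 was at 11.73 and 11.71 in wild type and 11.71 and 11.48 in the mutant. Its difference was -0.13 (SE 0.11). The dimmer tested probe set of Atp5if1 differed by -0.44 (SE 0.35) through wild-type replicate 1 alone, at 3.93. The other arrays were all at 3.05, under the dim level of 3.21, so this probe set was tested only through that array.

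**Figure D4:**
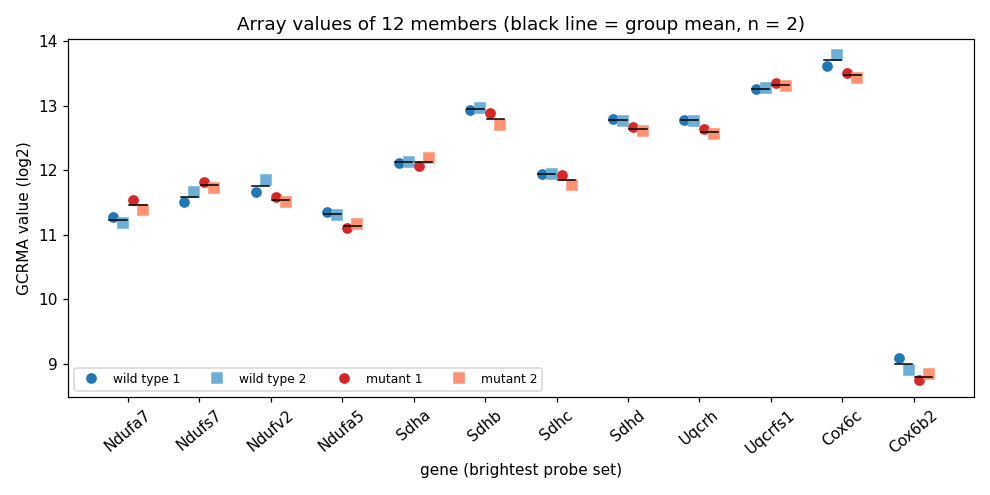
GCRMA value (log2) in each of the 4 arrays for 12 members, with the mean of each genotype (n = 2) as a black line. In the plotted genes other than Sdha, the means of the genotypes differ in size by 0.06 (Uqcrfs1) to 0.24 (Ndufa7). The arrays of wild type and mutant do not overlap in these genes. The 12 genes were picked and are not typical of the members in this. Of all 81 members, 18 were lower (22.2%) and 4 higher (4.94%) without overlap, against 12.1% and 12.2% of all tested named genes. Heights are not comparable between probe sets.

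For the members, the mutant arrays lay further apart than the wild-type arrays. The median absolute gap between the mutant arrays was 0.16 over the 81 genes, against 0.07 between the wild-type arrays. Over all tested named genes the same gaps were 0.18 and 0.15, and over the 829 genes of similar brightness 0.15 and 0.10. Mutant replicate 1 was above mutant replicate 2 in 61 of 81 members (75.3%), a pattern chosen after the values were seen. This share was 39.5% among all tested named genes and 49.5% among those of similar brightness. The members' median gap was 0.11 (mutant replicate 1 minus replicate 2), against -0.05 over all named genes and -0.01 over those of similar brightness. Wild-type replicate 1 was above replicate 2 in 37.0% of the members, in 37.0% of all named genes and in 44.4% of those of similar brightness.

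The largest such gap among subunits was in Uqcrq, a small subunit of complex III, at 13.02 and 12.38 in the mutant against 12.71 and 12.67 in wild type. Ndufb2, a small accessory subunit of complex I, was at 12.06 and 11.49 in the mutant against 11.79 and 11.90 in wild type. Ndufb11 was at 11.67 and 11.20 in the mutant, and both its wild-type values, 11.42 and 11.43, lay between these. By complex, mutant replicate 1 was the higher array in 13 of 15 genes of complex V, 7 of 8 of III, 8 of 11 of IV, 3 of 4 of II and 23 of 34 subunits of I. After quantile normalization it was higher in 60 of the 81 members against 52.7% of all named genes, and after median centring in 76 against 62.1%. The members' median difference between genotypes was -0.09 without mutant replicate 1 and 0.03 without mutant replicate 2, so its sign rests on which mutant array is used.

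**Figure D5:**
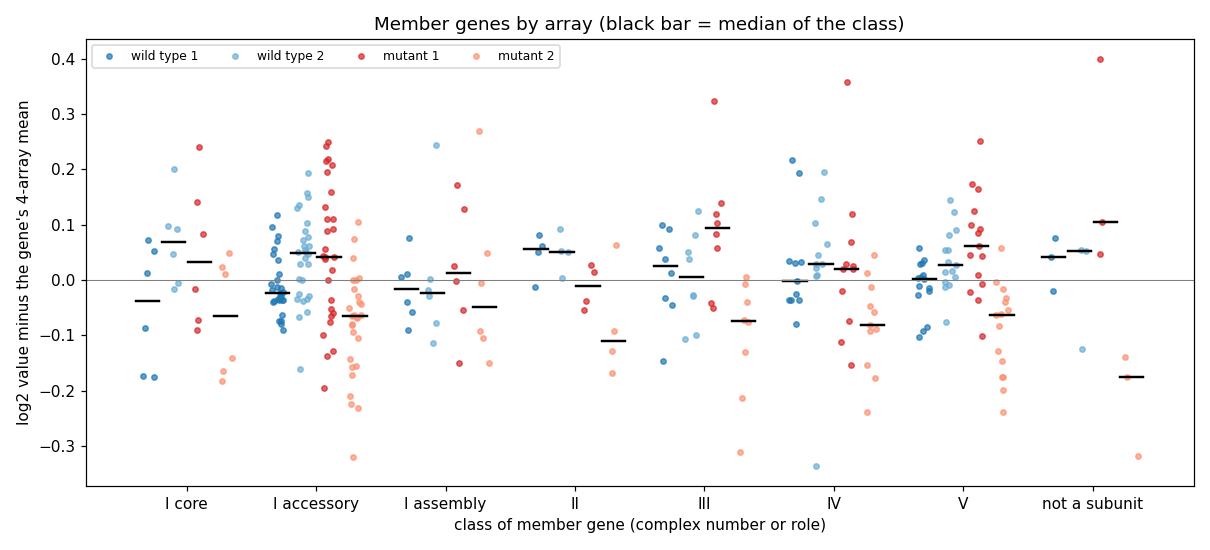
Log2 value of each tested member minus the mean of its 4 arrays (vertical axis), by class and array; black bars are class medians. Over all 81 members the array medians are -0.01 and 0.04 in wild type and 0.04 and -0.08 in the mutant, with mutant replicate 2 the lowest by median in all 8 classes.

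In 4 further lists of mitochondrial genes, 0 genes passed in limma after adjustment over all probe sets. Of 14 tested genes of pyruvate oxidation and the tricarboxylic acid cycle, 6 were higher and 8 lower (median -0.04). Among them Sucla2, a subunit of succinyl-CoA synthetase, had the lowest unadjusted p (0.042): it was at 11.48 and 11.55 in wild type and 11.30 and 11.23 in the mutant, which is a difference of -0.25 (SE 0.08; limma adjusted p = 1). Pdha1, of the pyruvate dehydrogenase complex, differed by -0.29 (SE 0.17). Of 32 assembly factors outside the Ndufaf family, 12 were higher and 20 lower (median -0.02), with Bcs1l, a complex III assembly factor, at 0.28 (SE 0.10) and Timmdc1, a complex I assembly factor, at -0.19 (SE 0.09). Carriers and pores had 5 higher and 7 lower (median -0.02), with the electron-transfer flavoprotein dehydrogenase Etfdh at 0.15 (SE 0.07) and the phosphate carrier Slc25a3 at 0.08 (SE 0.08).

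Among 16 tested regulators of mitochondrial biogenesis and mitochondrial DNA, 8 were higher and 8 lower (median 0.00). Twnk, the helicase that unwinds mitochondrial DNA, was at 8.51 and 8.66 in wild type and 9.12 and 9.09 in the mutant. Its difference of 0.52 (SE 0.09, 95% interval 0.25 to 0.79; unadjusted p = 0.0078, limma adjusted p = 1) was more than the largest among the members, and its groups did not overlap. Esrra, the oestrogen-related receptor that activates respiratory genes, was at 6.63 and 6.81 in wild type and 7.14 and 7.14 in the mutant, which is a difference of 0.42 (SE 0.10; limma adjusted p = 1). The coactivators Ppargc1a and Ppargc1b were dim in both genotypes and not tested. None of the 13 genes of mitochondrial DNA on the list had a single-symbol probe set, so the subunits they encode were not analysed here. Genes of glycolysis ran from -0.80 (Slc2a3) to 0.12, with 2 of 17 higher and 15 lower (median -0.09), and 0 passed in limma.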

How the data were processed

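The deposited table holds log2 expression values per probe set. The submitters' processing notes name GCRMA as the authors' method (its version is not given in the sources used here); the log2 scale was read from the deposited values (2.07 to 16.13). GCRMA corrects background from probe sequence and normalizes between arrays, so low values collapse to shared ones. Of 31099 probe sets, 57 controls were left out, and 12417 with a mean under the 40th percentile (3.21) were left out as dim. limma 3.58.1 in R 4.3.3 fitted genotype (lmFit, eBayes) to 18625 probe sets, with Benjamini-Hochberg adjustment over all of them. Each gene is represented by its brightest tested probe set. An exact permutation test of 2 against 2 arrays cannot go below 0.333, so none is given. Symbols come from the platform annotation; 9 further probe sets carried a member symbol among several and were left out. Arrays give no read depth; their number limits the precision.

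Named members were the highest and lowest of each class, all complex II genes, genes with an unadjusted p under 0.05 and no overlap (0 found), tissue-restricted isoforms and genes whose probe sets disagree by 0.5 or more; from each other mitochondrial list, up to 2 genes with the lowest p. Other members are named to complete a count or were chosen after their values were seen. Members, lists and tests were chosen with earlier results of these data known, and the motif forms after a first look at the windows. Alternatives were quantile normalization, median centring, a pseudocount of 16, no filter or the 60th percentile, a replicate block, an intensity trend, leaving out constant probe sets, averaging a gene's probe sets and leaving out each array. Promoter motifs were searched on both strands with Python 3.11.15.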

Additional observations from a re-analysis of the deposited data

How the results depend on the processing

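Under every setting tried, 0 member probe sets passed. Over all probe sets, against 0, quantile normalization, median centring and leaving out constant probe sets each called 2 and the stricter filter called 1. The replicate block called 0 overall and 0 members; the labels tie its numbers to no litter or day, and same-numbered deviations correlated at 0.43 over 18625 probe sets. Leaving out 1 array moved the median of complex I from -0.0929 (without mutant replicate 1) to 0.0332 (without mutant replicate 2), of II from -0.1692 to -0.0556, of III from -0.0766 to 0.0952, of IV from -0.1116 to -0.0027 (without wild-type replicate 2), of V from -0.0618 to 0.0506 and of the assembly factors from -0.0398 to 0.072 (without wild-type replicate 1). Over all members it ran from -0.0935 to 0.0327. Of 16 named members, 5 turned sign with an array left out: Uqcrc1 ran from -0.0027 to 0.1952, Cox5a from -0.1792 to 0.4174, Atp5po from -0.295 to 0.0684, Ndufaf1 from -0.0893 to 0.3286 and Sdha from -0.0498 to 0.0677. A further 7 kept their sign but moved by over 1.5 times: Ndufaf8 ran from -0.3477 to -0.0631, Ndufv2 from -0.3078 to -0.1188, Ndufs7 from 0.1114 to 0.2676, Cox6c from -0.3097 to -0.1441, Sdhb from -0.245 to -0.0614, Sdhc from -0.1799 to -0.0245 and Atp5f1d from 0.0004 to 0.3356. Genes without overlap were 18 lower (22.2%, against 12.1% of all named genes) and 4 higher (4.94%, against 12.2%). After quantile normalization they were 12 (14.8%, against 12.8%) and 6 (7.41%, against 14.9%). After median centring they were 10 (12.3%, against 12.9%) and 1 (1.23%, against 13.6%). These comparisons were added after seeing the data. With 1 array left out, genes without overlap ran from 20 to 54 lower (24.7% to 66.7%) and from 8 to 39 higher (9.88% to 48.1%). Over all named genes these shares ran from 23.6% to 37.4% lower and from 23.4% to 38.2% higher. The cause of these moves was not tested.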
